A study of Mus musculus with 29 samples.

Results

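The response of mouse brain to contextual fear conditioning was compared between the anterior cingulate cortex (ACC) 4 weeks after training and hippocampal area CA1 1 h after training. For each gene, the log2 fold change of CA1 after shock was subtracted from that of ACC after shock, each against naive mice of its own region. All 14947 genes listed in both shock tables were used, joined by gene ID, of 15672 genes listed in any gene table of the series. Region and time changed together in this contrast, so the effect of region and the effect of time cannot be told apart.

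In contextual fear conditioning a mouse is put in a new chamber and given an electric footshock, after which it freezes when it is returned to that chamber. The mice were males of 3 months, of a strain labelled C56BL/6, housed singly. RNA-seq libraries of polyadenylated RNA came from 5 mice 4 weeks after context with a 0.7 mA shock and 5 naive mice in ACC, and from 4 mice 1 h after context with the same shock and 5 naive mice in CA1. Another 5 mice per region met the context without shock, and were killed after 4 weeks for ACC and after 1 h for CA1, which makes 29 libraries in all. The labels do not say whether the naive mice of both regions were the same animals. The files hold the authors' comparisons of each trained group with naive mice and no value for a library, so the spread between mice enters only through the p-values, and the depth of each library is unknown.

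CA1 is the output field of the hippocampus and is needed for a new memory of a place, while ACC is a frontal cortical area that is used when an old memory is recalled. Neuronal firing switches on immediate early genes such as Fos and Egr1 within minutes through the transcription factors CREB and SRF, and their products drive a later wave that includes secreted factors, channel regulators and feedback inhibitors of the ERK kinase cascade. Their transcripts fall back within hours. Handling, stress hormone and time of day act on other sets of genes, among them glucocorticoid targets and the circadian clock.

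Promoters of 4 genes with strong responses are printed because they hold the letters of motifs tied to these programs. They were chosen after their values were seen. Each is the 250 bases before to 50 bases after the start of the gene, from RefSeq on GRCm38.p6, written 5′ to 3′ on the strand of the gene. Capitals mark the CREB element TGACGTCA, the E-box CACGTG bound by the clock factors CLOCK and BMAL1, the D-box TTATGTAA bound by DBP and its relatives, and the TATA box TATAAA. Flt1, a receptor for vascular endothelial growth factor, lies at chr5:147725962-147726261 on the minus strand, and has the CREB element 81 bases and the TATA box 31 bases before the start. Arl5b, a small GTPase of membrane traffic, lies at chr2:15055070-15055369 on the plus strand, with the CREB element at 121 bases and the E-box at 101 bases before the start. Gm129, which encodes a repressor of the clock also called CHRONO, lies at chr3:95882179-95882478 on the minus strand, with E-boxes 116, 58 and 44 bases before the start. Per3, a clock gene of the period family, lies at chr4:151044616-151044915 on the minus strand, with D-boxes 205 and 158 bases before the start.
Flt1: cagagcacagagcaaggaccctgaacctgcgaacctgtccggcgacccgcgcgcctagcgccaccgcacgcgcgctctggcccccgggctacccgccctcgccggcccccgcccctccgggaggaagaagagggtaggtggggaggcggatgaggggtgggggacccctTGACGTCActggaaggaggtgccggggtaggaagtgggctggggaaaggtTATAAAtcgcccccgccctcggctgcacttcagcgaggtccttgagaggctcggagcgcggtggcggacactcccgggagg
Arl5b: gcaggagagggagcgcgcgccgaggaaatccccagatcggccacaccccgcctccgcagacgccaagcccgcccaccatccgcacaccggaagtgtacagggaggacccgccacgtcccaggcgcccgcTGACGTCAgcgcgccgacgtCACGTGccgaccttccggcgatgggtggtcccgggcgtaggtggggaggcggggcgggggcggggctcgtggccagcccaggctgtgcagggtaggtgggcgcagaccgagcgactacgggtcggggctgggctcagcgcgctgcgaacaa
Gm129: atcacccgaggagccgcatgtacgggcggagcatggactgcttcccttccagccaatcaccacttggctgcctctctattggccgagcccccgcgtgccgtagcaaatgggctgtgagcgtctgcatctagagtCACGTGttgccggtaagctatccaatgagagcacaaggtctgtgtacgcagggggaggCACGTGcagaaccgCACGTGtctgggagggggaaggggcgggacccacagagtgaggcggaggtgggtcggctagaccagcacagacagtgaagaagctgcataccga
Per3: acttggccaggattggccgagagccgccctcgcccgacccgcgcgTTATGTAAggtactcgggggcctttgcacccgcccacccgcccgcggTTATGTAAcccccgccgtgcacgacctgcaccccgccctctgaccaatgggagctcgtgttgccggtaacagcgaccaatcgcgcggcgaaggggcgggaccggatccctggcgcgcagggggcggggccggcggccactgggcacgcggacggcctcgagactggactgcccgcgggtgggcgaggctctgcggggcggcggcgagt

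Both strands were searched in the 11381 promoters of RefSeq that matched a gene by symbol, and no motif overlapped another in these 4. The CREB element was present in 3.13% of the 11381, the E-box in 9.94%, the D-box in 0.536% and the TATA box in 7.01%. Among promoters of genes whose response was higher in ACC the CREB element was present in 3.58% and the E-box in 10.7%, and among those lower in ACC in 3.14% and 10.8%. By list, the CREB element was in 5 of 30 promoters of delayed activity genes and 3 of 27 of immediate early genes, and the E-box in 5 of 18 of clock genes, 7 of 27 of immediate early genes and 5 of 21 of glucocorticoid-responsive genes. The GC box GGGCGG, common in mammalian promoters, was in 64.0% of the 11381. A match is a description of letters, not a site in use or a cause of a response.

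The response to training differed between ACC at 4 weeks and CA1 at 1 h in 3733 genes, 25.0% of those tested. The response was higher in ACC in 1608 genes (10.8%) and lower in ACC in 2125 (14.2%), by a two-sided normal test of the difference with Benjamini-Hochberg adjustment at 0.05. A difference of at least 1 on the log2 scale was reached by 152 of the higher and 169 of the lower genes. The quartiles of the difference over all genes lay at -0.17 and 0.20, around a median of 0.02. The median error of a difference was 0.122 on the log2 scale, made up of 0.0683 for ACC and 0.0994 for CA1, and the median absolute difference was 0.191.

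The authors' deposited tables held far more called genes for ACC than for CA1. At a deposited adjusted p under 0.05, 6390 genes (42.8%) were called in ACC and 902 (6.03%) in CA1. Of these, 3030 genes rose (20.3%) and 3360 fell (22.5%) in ACC, while in CA1 479 rose (3.20%) and 423 fell (2.83%). The fold changes themselves were of like spread, with an SD over genes of 0.25 in ACC and 0.23 in CA1. Across genes the fold changes of both regions had a Pearson correlation of -0.14 and a Spearman correlation of -0.10. These are descriptions over genes, which are not independent.

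**Figure D1:**
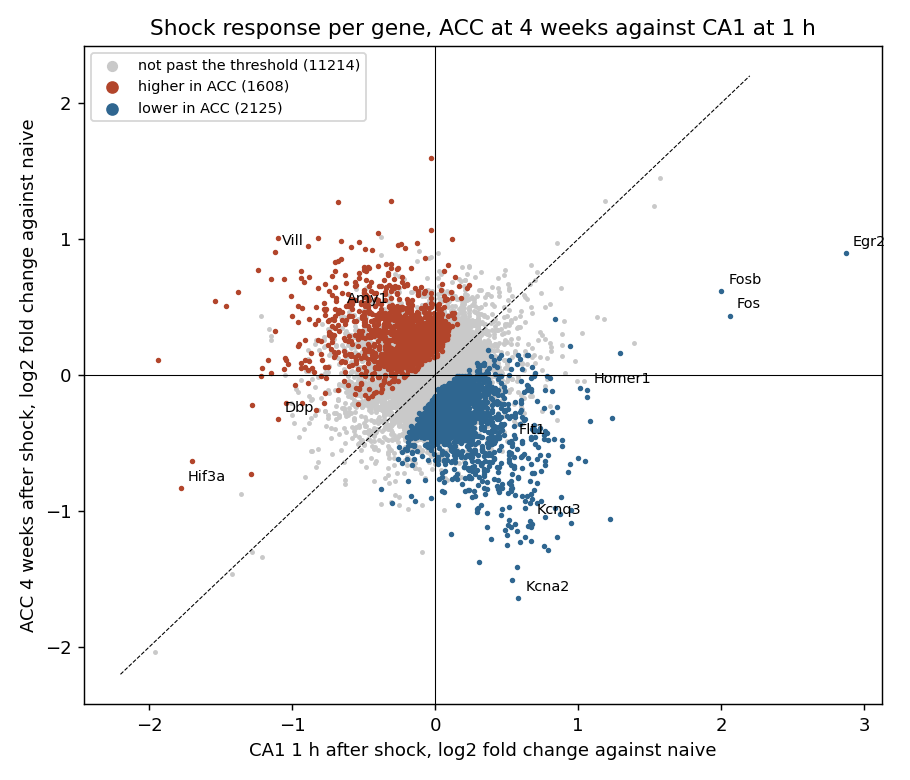
Log2 fold change after shock against naive mice, per gene, for ACC at 4 weeks (vertical axis) and CA1 at 1 h (horizontal axis), from the authors' deposited tables. Colours mark the 1608 genes whose response was higher in ACC and the 2125 lower in ACC; the largest CA1 responses, such as Egr2 at 2.87, lie to the right with a smaller ACC value.

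Immediate early genes carried the largest CA1 values. Of 34 listed, all measured, 6 rose and 2 fell in ACC, and 13 rose and 2 fell in CA1, by the deposited adjusted p. Over all genes 20.3% rose and 22.5% fell in ACC, and 3.20% rose and 2.83% fell in CA1. The response was lower in ACC for 9 (26.5%, against 14.2% of all genes) and higher for 2, with a median difference of -0.20 against 0.02 over all genes tested.

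Egr2, a zinc finger factor of the early wave, had log2 fold changes of 0.90 in ACC and 2.87 in CA1 in the authors' deposited tables. It thus rose in both regions, and the difference of -1.97 (95% interval -2.68 to -1.26, adjusted p = 2.30e-06 by the normal test) was the largest in the list. Fosb, an AP-1 subunit whose truncated form is long lived, likewise rose in both, with log2 fold changes of 0.62 in ACC and 2.00 in CA1 in the authors' deposited tables and a difference of -1.38 (-1.75 to -1.02). Fos, the partner of Jun in AP-1, had log2 fold changes of 0.44 in ACC (deposited adjusted p = 0.300) and 2.06 in CA1 (1.12e-09) in the authors' deposited tables. The ACC interval of Fos ran from -0.21 to 1.09, so an increase there is not excluded. Egr1, used widely as a marker of active neurons, stood at 0.16 in ACC and 1.29 in CA1 as log2 fold changes in the authors' deposited tables, a difference of -1.13 (-1.58 to -0.68). Nr4a3, an orphan nuclear receptor, stood at 0.22 in ACC and 0.94 in CA1 in the same log2 fold changes of the authors' deposited tables, a difference of -0.72 (-1.03 to -0.42).

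Npas4, an activity-dependent transcription factor of neurons, went the other way. Its log2 fold changes were 0.52 in ACC and -0.52 in CA1 in the authors' deposited tables. The CA1 value passed the threshold as a fall (deposited adjusted p = 0.0346) and the ACC value did not (0.0918), and the difference was 1.04 (95% interval 0.44 to 1.64, adjusted p = 5.11e-03 by the normal test). Ier3, the other early gene with a higher response in ACC, was not past the threshold in either region. Arc, which binds the synaptic cytoskeleton and controls glutamate receptor uptake, had log2 fold changes of 0.20 in ACC and 0.81 in CA1 in the authors' deposited tables. Its difference of -0.61 had an interval of -1.49 to 0.28 that spans 0. Klf2, a factor of blood vessel lining cells that sits in this list, fell in ACC at -0.48 and stood at 0.40 in CA1, without passing the threshold, as log2 fold changes in the authors' deposited tables.

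The delayed wave showed the difference in more of its members. Of 38 listed, 4 rose and 13 fell in ACC, against 20.3% and 22.5% of all genes. In CA1 22 rose and 1 fell, against 3.20% and 2.83%. Of the 38, 7 both fell in ACC and rose in CA1 (1.02% of all genes did so). The response was lower in ACC for 21 of 38 (55.3%, against 14.2% of all genes) and higher for 0, with a median difference of -0.40. Homer1, a scaffold of glutamate receptors whose short form is induced by activity, had log2 fold changes of -0.11 in ACC and 1.06 in CA1 in the authors' deposited tables, a difference of -1.17 (-1.52 to -0.82). The Homer1 values are of the whole gene and do not separate the short form. Arl5b fell in ACC and rose in CA1, with log2 fold changes of -0.46 in ACC and 0.44 in CA1 in the authors' deposited tables, a difference of -0.90 (-1.12 to -0.68). Errfi1, an inhibitor of the EGF receptor, also fell in ACC and rose in CA1, at -0.22 in ACC and 0.46 in CA1 as log2 fold changes in the authors' deposited tables. Rgs4, which shortens G protein signals, fell in ACC at -0.35, while its CA1 log2 fold change of 0.16 did not pass the threshold in the authors' deposited tables. Bhlhe40, a repressor shared with the clock list, stood at 0.00 in ACC and rose in CA1 at 0.52 as log2 fold changes in the authors' deposited tables.

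Feedback genes of the ERK cascade and secreted factors had the same sign. Of 12 ERK feedback genes, 1 rose and 3 fell in ACC, against 20.3% and 22.5% of all genes, so the falls were near that share. In CA1 7 rose and 0 fell, against 3.20% and 2.83%. The response was lower in ACC for 5 (41.7%, against 14.2% of all genes) and higher for 0, with a median difference of -0.36. Dusp6, the phosphatase that removes phosphate from ERK, had log2 fold changes of -0.01 in ACC and 0.69 in CA1 in the authors' deposited tables. Dusp4, a nuclear phosphatase of the same family, had log2 fold changes of -0.28 in ACC and 0.56 in CA1 in the authors' deposited tables, and passed the threshold in CA1 but not in ACC. Spred1, a membrane inhibitor of Raf activation, fell in ACC at -0.19 and rose in CA1 at 0.18 as log2 fold changes in the authors' deposited tables. Of 24 measured secreted factors and receptors, of 27 listed, the response was lower in ACC for 9 (37.5%) and higher for 0. Their median difference was -0.22. Bdnf, a neurotrophin that strengthens synapses, had log2 fold changes of -0.21 in ACC (deposited adjusted p = 0.186) and 0.45 in CA1 (2.67e-05) in the authors' deposited tables. Its difference was -0.66 (-0.96 to -0.36, adjusted p = 2.72e-04 by the normal test). Ntrk2, the receptor for BDNF, fell in ACC at -0.23 and was not called in CA1 at 0.10 as log2 fold changes in the authors' deposited tables.

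Endothelial and pericyte markers, which report on blood vessels, had the largest share of lower responses among the 44 lists. The response was lower in ACC for 18 of 25 (72.0%, against 14.2% of all genes) and higher for 0, and the median difference was -0.59. In ACC 18 of the 25 fell and 1 rose, against 22.5% and 20.3% of all genes. In CA1 9 rose and 0 fell, against 3.20% and 2.83%. All 25 differences were negative. In tissue samples of this kind, fewer cells of a type and less RNA per cell cannot be told apart.

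Flt1 fell in ACC and rose in CA1, with log2 fold changes of -0.49 in ACC and 0.53 in CA1 in the authors' deposited tables. Its difference of -1.02 (95% interval -1.21 to -0.82) had an adjusted p of 6.10e-21 by the normal test. Ptprb, a phosphatase of vessel lining cells that is not in the list, had the pair -0.85 in ACC and 0.24 in CA1 as log2 fold changes in the authors' deposited tables, and passed the threshold in both. Pecam1, an adhesion molecule between endothelial cells, was at -0.29 in ACC and 0.56 in CA1 as log2 fold changes in the authors' deposited tables, and Eng, a co-receptor for TGF-beta, changed in the same directions. Tek, the receptor for angiopoietins, fell in ACC at -0.48 and rose in CA1 at 0.38 as log2 fold changes in the authors' deposited tables. Other members moved in ACC alone: Abcb1a, the drug exporter of the blood-brain barrier, fell at -0.79 in ACC and stood at 0.06 in CA1 as log2 fold changes in the authors' deposited tables. Rgs5, a pericyte marker, fell at -0.49 in ACC and stood at 0.09 in CA1 as log2 fold changes in the authors' deposited tables. Cldn5, the main tight junction protein of the barrier, was the exception, and rose in both, at 0.64 in ACC and 0.88 in CA1 as log2 fold changes in the authors' deposited tables.

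**Figure D2:**
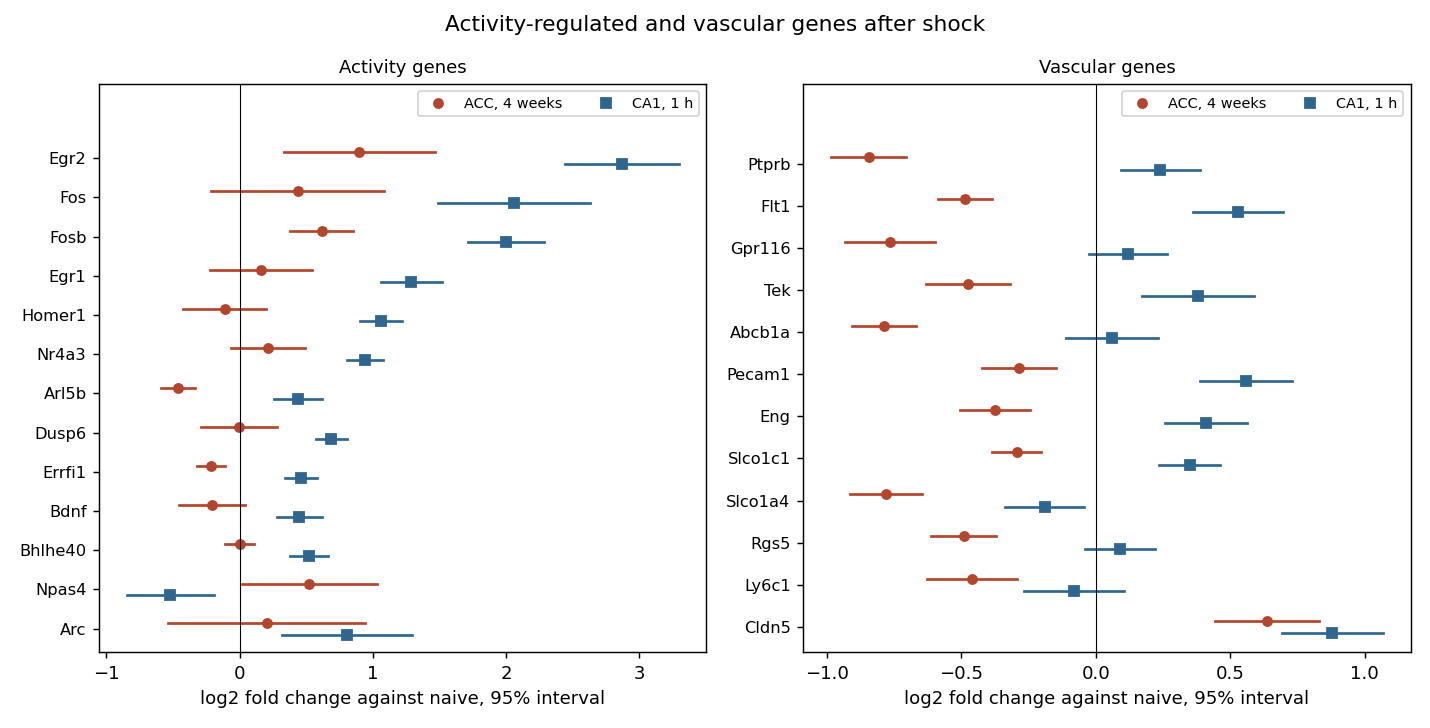
Log2 fold change after shock against naive mice (horizontal axis) for activity-regulated genes (left) and vascular genes (right), ACC at 4 weeks as circles and CA1 at 1 h as squares. Lines are 95% intervals implied by the authors' deposited p-values; Flt1, at -0.49 in ACC and 0.53 in CA1, has intervals that do not meet, and Cldn5 is above 0 in both regions.

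Clock genes included many that changed the same way in both regions. Of 22 listed, 10 fell and 2 rose in ACC, against 22.5% and 20.3% of all genes. In CA1 9 fell and 4 rose, against 2.83% and 3.20%. Of the 22, 7 fell in both and 2 rose in both, against 0.682% and 0.656% of all genes. The response was higher in ACC for 4 and lower for 4 (18.2% each, against 10.8% and 14.2% of all genes), and the median difference was 0.01. Nr1d2, a repressor of the loop that drives Arntl, fell in both regions, at -0.47 in ACC and -0.47 in CA1 as log2 fold changes in the authors' deposited tables, and the difference had an interval of -0.17 to 0.17. Bhlhe41, a repressor of CLOCK and BMAL1, fell with log2 fold changes of -0.41 in ACC and -0.44 in CA1 in the authors' deposited tables. Arntl, which encodes BMAL1, the activator of the clock, rose at 0.42 in ACC and 0.56 in CA1 as log2 fold changes in the authors' deposited tables. The labels give no hour of the day for any group, and its part in these values was not tested.

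Gm129, Per3 and Dbp differed between the regions, with the larger fall in CA1. Gm129 had log2 fold changes of -0.73 in ACC and -1.29 in CA1 in the authors' deposited tables, a difference of 0.56 (0.23 to 0.90). Dbp, a D-box binding factor and a classic output of the clock, had log2 fold changes of -0.32 in ACC and -1.10 in CA1 in the authors' deposited tables, and its ACC value did not pass the threshold (deposited adjusted p = 0.0598). Per3 fell in both, at -0.20 in ACC and -0.78 in CA1 as log2 fold changes in the authors' deposited tables, a difference of 0.58 (0.31 to 0.84). Clock itself fell in ACC at -0.39 and stood at 0.27 in CA1, without passing the threshold, as log2 fold changes in the authors' deposited tables.

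Genes that respond to glucocorticoids, the stress hormones of the adrenal gland, were lower in ACC for 9 of 26 measured (34.6%, against 14.2% of all genes; 28 were listed) and higher for 1, with a median difference of -0.23. In ACC 12 fell and 0 rose, against 22.5% and 20.3% of all genes. In CA1 6 rose and 4 fell, against 3.20% and 2.83%. Fkbp5, a chaperone that damps the glucocorticoid receptor, fell in ACC at -0.46 and stood at -0.10 in CA1 as log2 fold changes in the authors' deposited tables, a difference of -0.36 (-0.59 to -0.12). Klf9, a factor induced by corticosterone in neurons, fell in ACC at -0.46 and stood at 0.15 in CA1 as log2 fold changes in the authors' deposited tables. Sgk1, a kinase induced by the hormone, had log2 fold changes of -0.72 in ACC and -0.27 in CA1 in the authors' deposited tables, and its difference did not pass the threshold (adjusted p = 0.110 by the normal test). Hif3a, a hypoxia factor also induced by glucocorticoids, fell in both, at -0.83 in ACC and -1.78 in CA1 as log2 fold changes in the authors' deposited tables, and was the 1 member higher in ACC. The mineralocorticoid receptor gene Nr3c2 stood at -0.11 in ACC and rose in CA1 at 0.44 as log2 fold changes in the authors' deposited tables. The glucocorticoid receptor gene Nr3c1 fell in ACC at -0.21 and stood at 0.15 in CA1 in the same tables.

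**Figure D3:**
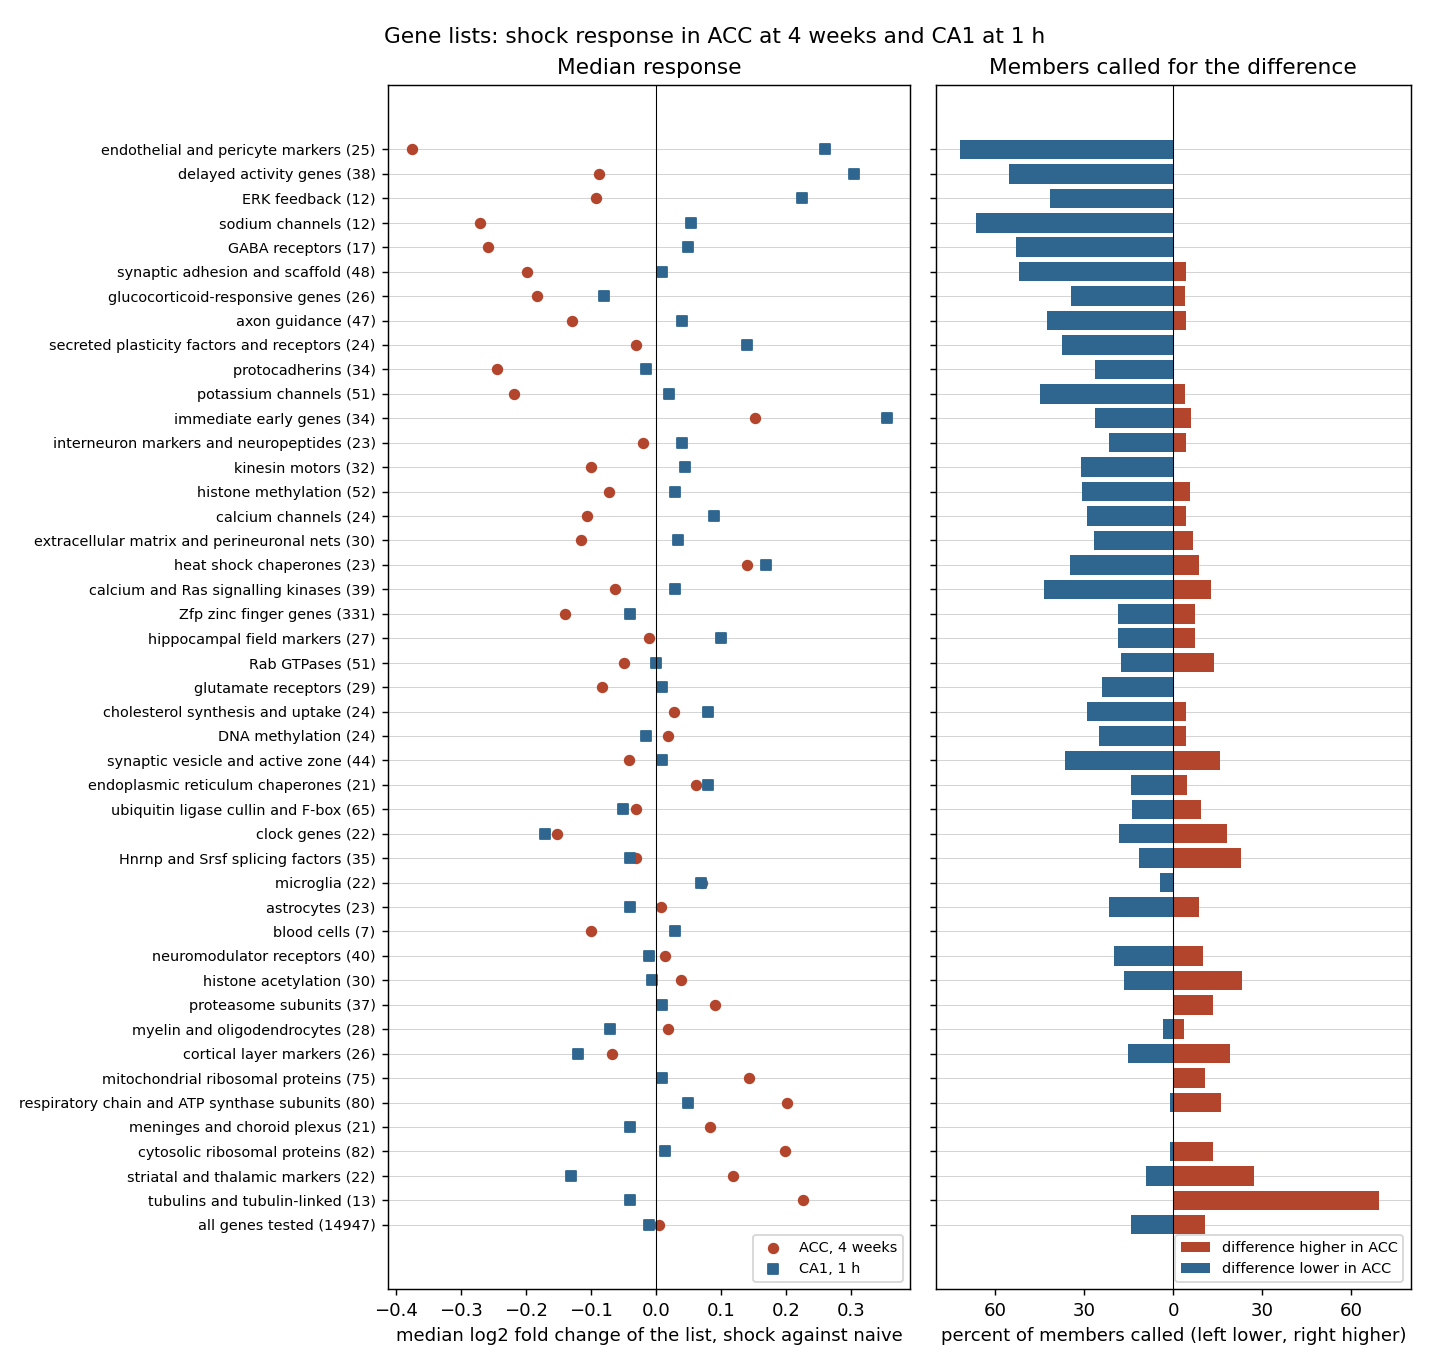
Median log2 fold change of each gene list (left; ACC at 4 weeks as circles, CA1 at 1 h as squares) and the percent of its members whose response was higher or lower in ACC (right), with the number measured in brackets and all 14947 genes in the lowest line. Endothelial and pericyte markers stand at the top with 72.0% lower and tubulins near the foot with 69.2% higher.

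Many ion channel genes fell in ACC. Of 51 potassium channel genes the response was lower in ACC for 23 (45.1%, against 14.2% of all genes) and higher for 2. In ACC 31 fell, against 22.5% of all genes, and in CA1 6 rose, against 3.20%. With the trend over length and GC content subtracted, as described further on, 12 were lower. Kcnq3, a subunit of the M channel that limits repeated firing, fell in ACC at -1.08 and rose in CA1 at 0.66 as log2 fold changes in the authors' deposited tables, a difference of -1.74 (-2.08 to -1.39). Kcnj6, an inward rectifier opened by G proteins, fell in ACC at -0.46 and rose in CA1 at 0.67 as log2 fold changes in the authors' deposited tables. Kcna2, a subunit of fast axonal channels, had the largest difference of the list at -2.22 (-3.05 to -1.39), from log2 fold changes of -1.64 in ACC and 0.58 in CA1 in the authors' deposited tables. The CA1 value of Kcna2 was not called (deposited adjusted p = 0.487). Kcnma1, the large-conductance channel opened by calcium, fell in ACC at -1.14 and stood at 0.49 in CA1 as log2 fold changes in the authors' deposited tables.

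Sodium channel genes were lower in ACC for 8 of 12 and higher for 0, and GABA receptor genes for 9 of 17 and 0. These are 66.7% and 52.9% lower, against 14.2% of all genes. Scn8a, the channel of the axon initial segment, fell in ACC at -0.31 and stood at 0.10 in CA1 as log2 fold changes in the authors' deposited tables. Gabrb1, a subunit of the GABA-A receptor, fell in ACC at -0.51 and rose in CA1 at 0.40 as log2 fold changes in the authors' deposited tables, a difference of -0.91 (-1.14 to -0.67). Calcium channels were lower in ACC for 7 of 24 (29.2%, against 14.2% of all genes) and higher for 1.

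Glutamate receptor genes were lower in ACC for 7 of 29 (24.1%, against 14.2% of all genes) and higher for 0. Their median difference was -0.05, close to that of all genes. Grin2a, an NMDA receptor subunit, fell in ACC at -1.09 and rose in CA1 at 0.68 as log2 fold changes in the authors' deposited tables, a difference of -1.77 (-2.26 to -1.28). Its partner Grin2b had log2 fold changes of -0.91 in ACC and 0.68 in CA1 in the authors' deposited tables, where only the ACC value of this pair was called. Gria1, an AMPA receptor subunit that is moved to synapses in plasticity, stood at -0.02 in ACC and rose in CA1 at 0.33 as log2 fold changes in the authors' deposited tables. Gria2, the subunit that blocks calcium entry, fell in ACC at -0.45 and stood at -0.03 in CA1 as log2 fold changes in the authors' deposited tables. With the trend over length and GC content subtracted, the differences of Gria1 and Gria2 were -0.21 and -0.0018 and neither was called.

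Synaptic adhesion and scaffold genes were lower in ACC for 25 of 48 and higher for 2, and axon guidance genes for 20 of 47 and 2. These are 52.1% and 42.6% lower, against 14.2% of all genes. In ACC 32 of the 48 adhesion genes fell and 0 rose, against 22.5% and 20.3% of all genes. Dlgap2, a scaffold of the postsynaptic density, fell in ACC at -0.36 and rose in CA1 at 0.48 as log2 fold changes in the authors' deposited tables. Epha6, a receptor for ephrins, fell in ACC at -0.41 and rose in CA1 at 0.69 as log2 fold changes in the authors' deposited tables, a difference of -1.10 (-1.36 to -0.85). Sema3e, a secreted guidance cue, had the pair -0.41 in ACC and 0.40 in CA1 as log2 fold changes in the authors' deposited tables, both past the threshold. Nrxn3, a presynaptic adhesion molecule, fell in ACC at -0.35 and stood at 0.00 in CA1 as log2 fold changes in the authors' deposited tables. Genes of these lists have long transcripts, with medians of 6058.5 bases for adhesion and 5930 for guidance against 3392 for all genes, and the values by length are given further on.

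Tubulin genes went the other way, by smaller amounts. Most other lists of the basic machinery of the cell were near all genes in the higher share and below them in the lower share. Of 13 tubulin genes, which form or nucleate microtubules, the response was higher in ACC for 9 (69.2%) and lower for 0, with a median difference of 0.24. In ACC 11 of these rose and in CA1 0 did, against 20.3% and 3.20% of all genes. Tuba4a rose in ACC at 0.29 and stood at 0.00 in CA1 as log2 fold changes in the authors' deposited tables. Cytosolic ribosomal protein genes were higher in ACC for 11 of 82 and lower for 1, near the 10.8% of all genes in the higher direction, although 41 of them rose in ACC. Rps21 rose in ACC at 0.64 and stood at 0.22 in CA1 as log2 fold changes in the authors' deposited tables. Respiratory chain and ATP synthase subunits were higher for 13 of 80 and lower for 1, mitochondrial ribosomal proteins for 8 of 75 and 0, and proteasome subunits for 5 of 37 and 0. These are 16.2%, 10.7% and 13.5% higher, against 10.8% of all genes. The lower shares were 1.22% for cytosolic ribosomal proteins, 1.25% for the respiratory chain and 0% for the other 2, against 14.2% of all genes. Differences were positive for 75 of 82 cytosolic ribosomal and 69 of 80 respiratory genes, against 7834 of 14947 for all genes. In ACC 54 of the 80 respiratory genes rose, against 20.3% of all genes. Cox8a, a subunit of cytochrome oxidase, rose in ACC at 0.37 and stood at 0.01 in CA1 as log2 fold changes in the authors' deposited tables. These genes have short transcripts, with a median of 1100 bases for cytosolic ribosomal proteins and 1803 for tubulins.

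The genes with the strongest evidence of a higher response in ACC rose there and fell in CA1. Amy1, an amylase, led by p with log2 fold changes of 0.48 in ACC and -0.67 in CA1 in the authors' deposited tables, a difference of 1.15 (0.90 to 1.39, adjusted p = 2.47e-16 by the normal test). Ssh3, a phosphatase that activates the actin-severing protein cofilin, had log2 fold changes of 0.73 in ACC and -0.63 in CA1 in the authors' deposited tables. Stxbp2, a partner of syntaxins in vesicle fusion, had log2 fold changes of 0.67 in ACC and -0.62 in CA1 in the authors' deposited tables. Ltk, a receptor tyrosine kinase, had log2 fold changes of 0.70 in ACC and -0.48 in CA1 in the authors' deposited tables. All 4 passed the threshold in both regions. By size, Col5a1, a fibrillar collagen chain, had a difference of 1.84 (1.16 to 2.52), from log2 fold changes of 0.95 in ACC and -0.89 in CA1 in the authors' deposited tables, and its CA1 value was not called. The non-coding genes Mir5105 and Gm15564 had differences of 2.09 and 1.99 with wide intervals of 0.73 to 3.44 and 0.71 to 3.27. Amylase genes have near-identical copies, and the way shared reads were counted is not given in the sources used here, so the Amy1 value is uncertain.

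Among the genes with the strongest evidence of a lower response in ACC were regulators of neuronal signalling. Frrs1l, a protein that helps assemble AMPA receptors, had log2 fold changes of -0.41 in ACC and 0.16 in CA1 in the authors' deposited tables, a difference of -0.57 (-0.67 to -0.48, adjusted p = 4.29e-27 by the normal test), the smallest p of all. Prkcb, a protein kinase C, fell in ACC at -0.37 and rose in CA1 at 0.14 as log2 fold changes in the authors' deposited tables. Zbtb18, a repressor needed for cortical neuron development, fell in ACC at -0.30 and rose in CA1 at 0.14 as log2 fold changes in the authors' deposited tables. Slco1c1, the thyroxine transporter of brain vessels, fell in ACC at -0.29 and rose in CA1 at 0.35 as log2 fold changes in the authors' deposited tables. By size, Bmpr2, a receptor for bone morphogenetic proteins, and Gucy1a2, a subunit of the nitric oxide receptor, had differences of -2.08 (-2.76 to -1.39) and -2.04 (-2.72 to -1.37). Neither was called in CA1.

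Genes of chromatin and RNA processing were split. Histone acetylation genes were higher in ACC for 7 of 30 (23.3%) and lower for 5 (16.7%), against 10.8% and 14.2% of all genes. Histone methylation genes were higher for 3 of 52 (5.77%) and lower for 16 (30.8%). With the trend over length and GC content subtracted, as described further on, histone acetylation genes had 4 higher and 1 lower. Histone methylation genes then had 3 in each direction. Hdac3, a deacetylase that limits long-term memory in mice, rose in ACC at 0.24 and fell in CA1 at -0.19 as log2 fold changes in the authors' deposited tables. Hdac10 had log2 fold changes of 0.44 in ACC and -0.33 in CA1 in the authors' deposited tables, both past the threshold. Setd7, a histone methyltransferase, fell in ACC at -0.25 and rose in CA1 at 0.22 as log2 fold changes in the authors' deposited tables. Splicing factors of the Hnrnp and Srsf families were higher in ACC for 8 of 35 (22.9%) and lower for 4 (11.4%). Srsf5 rose in ACC at 0.31 and fell in CA1 at -0.38 as log2 fold changes in the authors' deposited tables, and Srsf2 stood at 0.07 in ACC and fell in CA1 at -0.37.

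Heat shock chaperones and cholesterol synthesis genes were more often lower than higher in ACC. Chaperones were lower in ACC for 8 of 23 (34.8%) and higher for 2 (8.70%), against 14.2% and 10.8% of all genes. In ACC 9 of them rose, against 20.3% of all genes, and in CA1 also 9, against 3.20%. In both regions 5 rose, against 0.656%. Hsph1, a co-chaperone of HSP70, rose in both, at 0.11 in ACC and 0.41 in CA1 as log2 fold changes in the authors' deposited tables. Genes of cholesterol synthesis and uptake were lower in ACC for 7 of 24 (29.2%) and higher for 1 (4.17%), with a median difference of -0.04.

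Among markers of the other cell types the samples could hold, those of microglia, myelin and meninges had few differences, against 10.8% of all genes higher and 14.2% lower. Microglial markers were higher in ACC for 0 of 22 and lower for 1, myelin and oligodendrocyte markers for 1 and 1 of 28, and meningeal and choroid plexus markers for 0 and 0 of 21. Against naive mice, 9 of the microglial markers rose in ACC and 0 fell, against 20.3% and 22.5% of all genes. In CA1 0 of them rose or fell. In ACC 8 myelin markers rose and 4 fell, and 7 meningeal markers rose and 2 fell. Astrocyte markers were higher for 2 of 23 and lower for 5 (21.7%), among them Aqp4, the water channel of astrocyte endfeet at vessels, which fell in ACC at -0.30 and stood at 0.10 in CA1 as log2 fold changes in the authors' deposited tables. Striatal and thalamic markers were higher for 6 of 22 (27.3%) and lower for 2. Ppp1r1b, which encodes DARPP-32 of striatal neurons, rose in ACC at 0.53 and stood at -0.03 in CA1 as log2 fold changes in the authors' deposited tables. The striatal receptor genes Drd1a and Adora2a had base means of 496 and 198 in ACC and of 150 and 29.3 in CA1 in the authors' deposited tables, which were normalised separately. Adora2a rose in ACC, where its log2 fold change was 1.00 by the authors' deposited tables. The part of striatal tissue in the ACC values was not tested. Region markers followed the labels in part. By base means, Fibcd1, a CA1 marker, stood at 140 in ACC and 4269 in CA1, Lamp5, a cortical marker, at 4777 in ACC and 914 in CA1, and the cortical marker Tshz2 at 103 in ACC and 534 in CA1, in the authors' deposited tables.

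Of the genes called in both regions, 264 changed in opposite directions and 200 in the same direction. These 464 are 7.26% of the genes called in ACC and 51.4% of those called in CA1. Within them 112 rose in ACC and fell in CA1 (0.749% of all genes), 152 fell in ACC and rose in CA1 (1.02%), 98 rose in both (0.656%) and 102 fell in both (0.682%). Genes past the threshold on both sides of 0 pass the test of the difference by construction, and 21 of the 200 that changed the same way also passed it. Of the 479 genes that rose in CA1, 98 rose and 152 fell in ACC, and 229 were not called there.

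Vill, an actin-binding protein of the villin family, had the largest difference among genes with a base mean of at least 50 that rose in ACC and fell in CA1, with log2 fold changes of 0.90 in ACC and -1.12 in CA1 in the authors' deposited tables, a difference of 2.02 (1.52 to 2.53). Slc39a2, a zinc transporter, and Slc16a11, a monocarboxylate transporter, had differences of 1.53 (1.04 to 2.03) and 1.46 (1.08 to 1.83). Dgkh, a diacylglycerol kinase, was largest in the opposite direction, with log2 fold changes of -1.19 in ACC and 0.85 in CA1 in the authors' deposited tables, a difference of -2.04 (-2.57 to -1.51). Fzd3, a Wnt receptor used in axon growth, and Tnr, an extracellular matrix protein of perineuronal nets, had differences of -1.76 (-2.17 to -1.34) and -1.53 (-1.87 to -1.20). Among genes that changed the same way, Mmp17, a matrix metalloproteinase, rose at 0.24 in ACC and 0.36 in CA1, and Gpcpd1, a glycerophosphodiesterase, fell at -0.53 in ACC and -0.42 in CA1, as log2 fold changes in the authors' deposited tables.

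**Figure D4:**
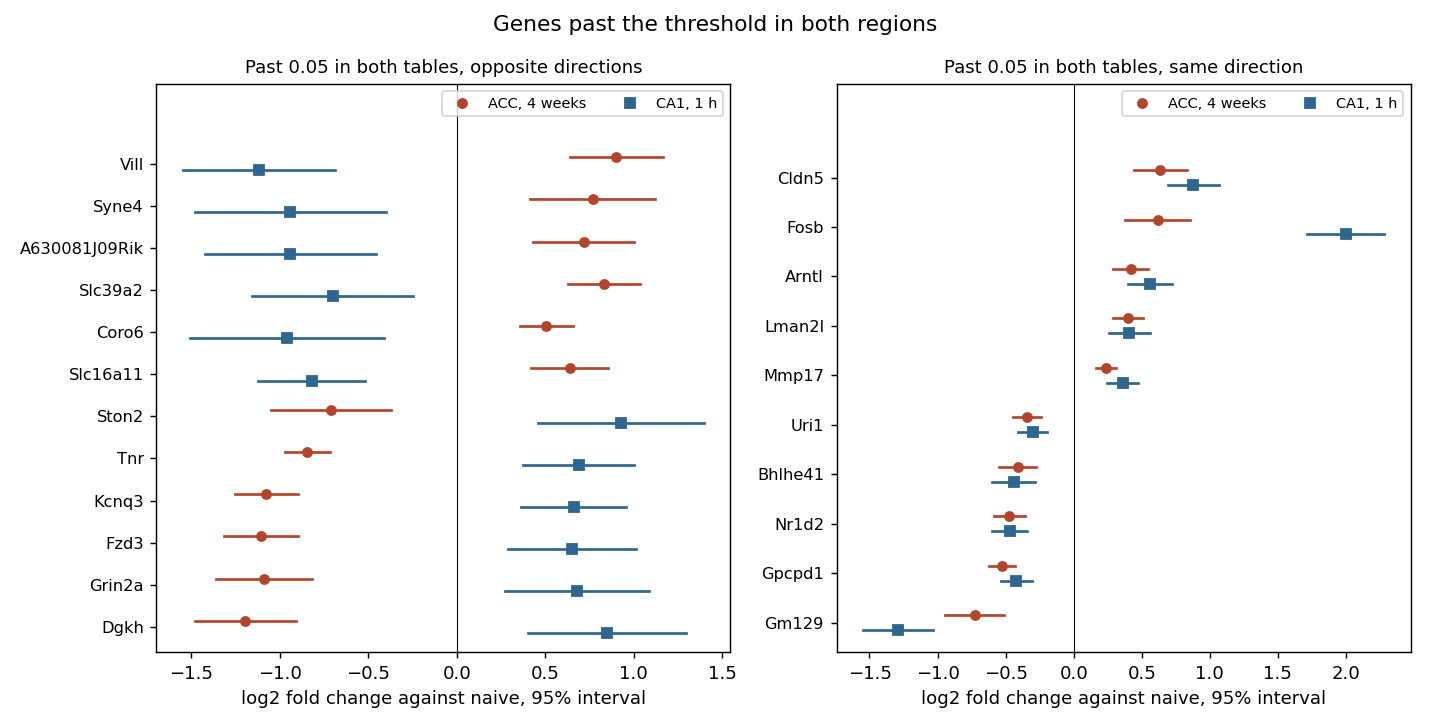
Log2 fold change after shock against naive mice (horizontal axis) for genes past 0.05 in both of the authors' deposited tables, in opposite directions (left) and in the same direction (right), ACC at 4 weeks as circles and CA1 at 1 h as squares. Lines are 95% intervals implied by the deposited p-values; in the left panel every pair lies on both sides of 0, from Vill at 0.90 in ACC and -1.12 in CA1 to Dgkh at -1.19 and 0.85.

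The difference followed the length and base composition of the transcript. The genes were split into 5 groups of equal size. In the group with the shortest transcripts, with a median of 1375 bases, the median difference was 0.16, and 15.6% of genes were higher and 2.16% lower in ACC. In the group with the longest, with a median of 6844 bases, the median difference was -0.19, and 3.48% were higher and 38.8% lower. By GC content, the median difference was -0.12 in the lowest of 5 groups and 0.19 in the highest. Nearly all of this lay in the ACC values: their median was 0.15 in the shortest and -0.17 in the longest group, against -0.01 and 0.02 for CA1. As a description across 14819 genes, the Spearman correlation with transcript length was -0.46 for the ACC fold change and 0.09 for the CA1 fold change, and with GC content 0.50 and 0.0033.

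With the trend over length and GC content subtracted, 1136 genes were higher in ACC (7.67%) and 1033 lower (6.97%), and 1543 calls were the same with and without it. The lists did not all keep their values. The median difference of endothelial and pericyte markers was -0.59 before and -0.56 after, and 20 of 25 were then lower. Delayed activity genes stood at -0.38 after, with 20 of 38 lower, and immediate early genes at -0.38 with 10 of 34 lower. Sodium channels had 3 lower genes against 8, GABA receptors 5 against 9, calcium channels 4 against 7, synaptic adhesion genes 9 against 25 and axon guidance genes 7 against 20. Tubulins had 1 higher gene against 9, respiratory chain subunits 0 against 13, cytosolic ribosomal proteins 2 against 11 and proteasome subunits 2 against 5. Striatal and thalamic markers had 2 higher against 6, and astrocyte markers 2 lower against 5. Of the genes described above, Spred1, Ntrk2, Clock, Nr3c1, Scn8a, Gria1, Gria2, Nrxn3, Aqp4, Gm129, Ppp1r1b, Rps21 and Cox8a lost the call of their difference, and Cldn5 gained it. Whether the trend comes from the tissue or from the libraries was not tested.

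**Figure D5:**
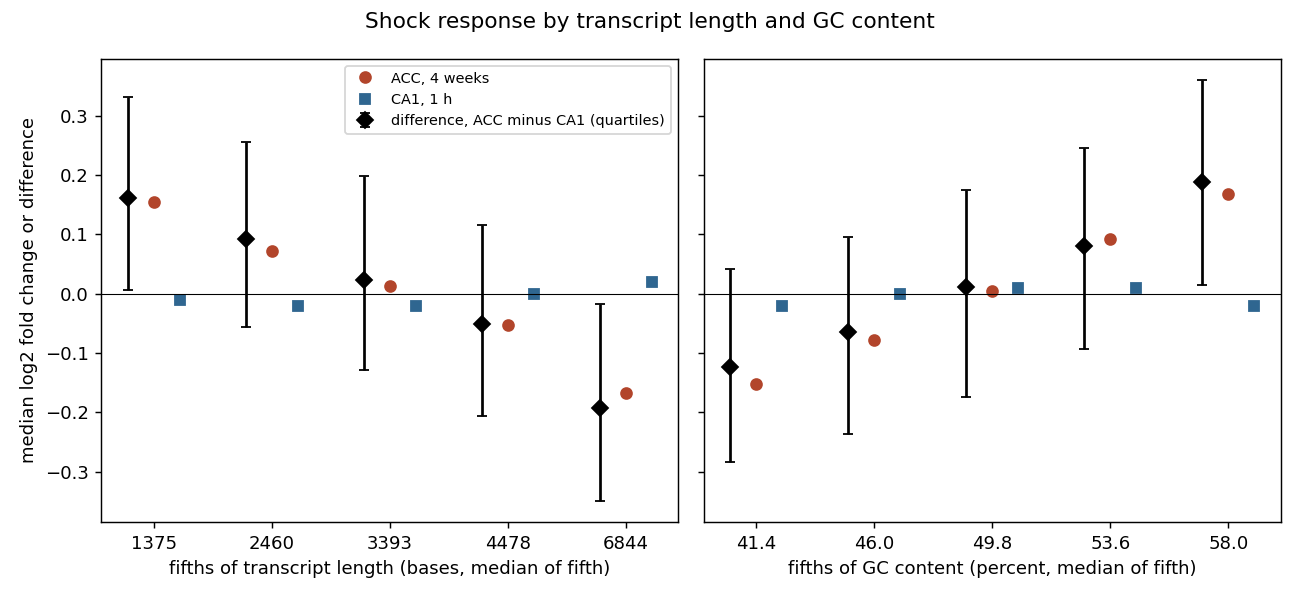
Median difference (diamonds, with quartiles) and median log2 fold change of ACC at 4 weeks (circles) and CA1 at 1 h (squares) in 5 equal groups of genes by transcript length (left, bases) and GC content (right, percent). The ACC median is 0.15 in the shortest and -0.17 in the longest group, while the CA1 median stays between -0.02 and 0.02.

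The mice that met the context without shock give values of context alone to compare with those after shock. The shock and context comparisons of a region share their naive mice, so the values are set side by side and no overlap is given. In ACC, the context log2 fold changes of Flt1, Kcnq3 and Grin2a were -0.03, -1.06 and -1.05 in the authors' deposited tables. Those of Kcna2, Bmpr2 and Dgkh were -1.71, -1.20 and -1.31. In CA1, those of Egr2, Fos and Homer1 were 3.00, 2.15 and 0.91 in the authors' deposited tables. The CA1 values of these early genes after context alone were thus close to those after shock. So were the ACC values of Kcnq3, Grin2a, Kcna2, Bmpr2 and Dgkh, whereas Flt1 in ACC was near 0 after context alone.

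The shock over context response, again ACC minus CA1, passed the threshold for 1 of 14799 genes (0.00676%, lower in ACC) and for 0 in the higher direction by the normal test with Benjamini-Hochberg adjustment. The naive mice cancel in this value but not in the summed errors, which are therefore too large. Few calls with these errors do not mean that few genes differed. With squared errors halved to allow for the shared mice, 494 were higher (3.34%) and 514 lower (3.47%). At an unadjusted p under 0.05 there were 603 higher (4.07%) and 646 lower (4.37%). The 1 gene was Rgs5, with shock over context values of -0.49 in ACC and 0.19 in CA1 and a difference of -0.67 (adjusted p = 0.0394 by the normal test), and with the trend over length and GC content removed it lost the call. Next by p among lower genes came Slco1a4, an organic anion transporter of brain vessels, and Gpr116, a receptor of endothelial cells, both at -0.61, then Synpr, a synaptic vesicle protein, at -0.46 and Ly6c1, an endothelial surface protein, at -0.64. Ssh3 led the higher genes at 0.99, and neither it nor the other 4 lower genes passed the threshold with the summed errors.

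The authors' deposited tables of exonic bins, which hold only bins with an adjusted p under 0.1, listed 2699 bins for ACC after shock and 189 for CA1 after shock, in 1584 and 145 genes. There were 67 genes with a bin in both, 4.23% of those for ACC and 46.2% of those for CA1. Of 58 bins listed in both, 45 had fold changes of opposite sign and 13 of the same sign. The direction of the bin fold changes was not checked, and these counts need it to be alike in both regions. Some values lay close to 0, such as 1 bin of Slc1a2 at -0.028 in ACC and 0.0039 in CA1. Among genes with a listed bin, the gene-level difference was called for 47.8% of those in the ACC table and 53.1% of those in the CA1 table, against 25.0% of all genes. These shares were not matched for transcript length or level, and calls of the difference varied with length. In Kcnh7, a potassium channel gene, 1 bin had log2 fold changes of 0.07 in ACC and -0.05 in CA1 in the authors' deposited tables. In Apc, a regulator of Wnt signalling and microtubules, 1 bin had log2 fold changes of -0.66 in ACC and 0.54 in CA1 in the authors' deposited tables. Both genes were chosen after their values were seen.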

How the data were processed

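The study sequenced polyadenylated RNA of ACC and CA1 with a TruSeq v2 kit, per the labels' protocols. Tools named in the submitters' processing notes are STAR 2.3.0e, CASAVA 1.8.2, DESeq2 and SAMtools, with mm10 as the build. What each did, the annotation and the strand of counting are not stated there. Per the file headers, every gene has a base mean, which is a signal of normalised counts that the authors averaged over libraries. The authors also deposited its log2 fold change, and its p-value before and after adjustment. The lowest base mean listed is 10.0 in both shock tables. No source used here says whether the fold changes were shrunken. The headers do not state their direction. It was checked from the values: the log2 ratio of the base means of shock and context tables followed the difference of their fold changes (slope 0.52 in ACC and 0.46 in CA1), so positive means higher in trained mice.

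The error of each fold change was implied by its deposited p as a Wald test. The CA1 table is rounded to 2 decimals, so for 3640 genes whose CA1 value lay within 0.05 of 0 the error of the CA1 context comparison times 1.08, the median ratio, was used. The difference, ACC minus CA1, was divided by the square root of the sum of both squared errors and tested against the normal distribution, two-sided, with Benjamini-Hochberg adjustment over 14947 genes, with calls under 0.05. The p-values measure the spread between the libraries, which the labels describe as mice. If naive mice were shared between regions, the errors are too large or too small by an unknown amount. On simulated data with these errors and 14947 genes, 83.0% of 100 genes changed 1.5-fold and 99.0% of 100 changed 2.0-fold in this difference were recovered, and 6 unchanged genes were called. The simulated noise was normal and drawn from the same implied errors, with no trend over length or GC content. It therefore cannot show whether the implied errors are right or how many calls in the real data are false.

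Length and GC content are those of each gene's longest GENCODE M21 transcript, found for 99.1% of genes, and trends were removed with natural cubic splines of 5 knots. The planned interaction fit on values per library was not possible with these tables. The genes, the 44 lists (11 of them by name pattern) and the tests were chosen with earlier results of these data known. Named genes were those with the smallest p or largest difference in each direction, overall (base mean of at least 50), among genes called in both regions and for shock over context, up to 5 per list by p, and 11 chosen singly. Alternatives varied the errors, the threshold, the level filter, the centring and the trend. The software was numpy 2.4.6, pandas 2.3.3, scipy 1.17.1 and matplotlib 3.10.9 under Python 3.11.15.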

Additional observations from a re-analysis of the deposited data

Results flagged for a closer look

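These genes passed the threshold in both regions in opposite directions, so their difference passes the normal test by construction and gives no added support. They are the 6 largest differences in each direction among genes with a base mean of at least 50. Those that rose in ACC at 4 weeks and fell in CA1 at 1 h were Vill (difference of 2.02 on the log2 scale), Syne4 (1.71), A630081J09Rik (1.66), Slc39a2 (1.53), Coro6 (1.47) and Slc16a11 (1.46). Those that fell in ACC and rose in CA1 were Dgkh (-2.04), Grin2a (-1.77), Fzd3 (-1.76), Kcnq3 (-1.74), Ston2 (-1.64) and Tnr (-1.53). After context without shock, the authors' deposited log2 fold changes in ACC and CA1 kept these directions. They were -1.31 and 1.02 for Dgkh, -1.05 and 0.76 for Grin2a, and -0.95 and 0.57 for Fzd3. Those of Kcnq3 were -1.06 and 0.78, of Ston2 -0.98 and 0.92, and of Tnr -0.98 and 0.62. Of the 6 that rose in ACC after shock, Vill had 0.44 and -0.31, and the others were below 0 in both.

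Rgs5 differed in its shock over context response, at -0.67 for ACC minus CA1, and was the 1 gene of 14799 past the threshold in that test. The test used summed errors that are too large, and with squared errors halved 494 genes were higher in ACC and 514 lower. With the summed errors and the trend over length and GC content removed, Rgs5 was not past the threshold.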

How the results depend on the processing

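No paired analysis was possible because the deposited tables hold 1 comparison per gene and no value per library, and leaving out a library was not run for the same reason. Genes higher in ACC (1608) numbered 287 with errors multiplied by 1.5, 939 at an adjusted p under 0.01 and 581 with an absolute difference of at least 0.5, and between 1136 and 2107 under the other 6 settings. Genes lower in ACC (2125) numbered 1033 with the trend over length and GC content removed, 532 with errors multiplied by 1.5 and 617 with an absolute difference of at least 0.5, and between 1458 and 2549 under the other 6. With the trend removed, 1543 calls were shared with the reported ones, 620 were new and 6 had the opposite direction. Genes called in both regions in opposite directions (264) numbered 98 at a deposited adjusted p under 0.01 and 445 under 0.1, and those in the same direction (200) numbered 87 and 332, and 130 with the trend removed. For shock over context, halving the squared errors to allow for the shared naive mice gave 494 genes higher in ACC and 514 lower, and removing the trend left 0 lower. The cause of the other changes was not tested.

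With the trend removed, of 262 named genes 167 kept their direction and side of the threshold, 79 lost the call, 2 gained it and 13 changed sign, and 1 had no transcript length. These sign changes gave differences of 0.0513 for Lman2l, 0.166 for Nr1d2, 0.0637 for Gpcpd1, 0.0876 for Synpr, 0.0706 for Rora, 0.0348 for Scn2a1, 0.0140 for Cacnb4, 0.0705 for Kdm5a, 0.137 for Slc1a2, -0.0566 for Hba-a2, -0.0266 for Cyc1, -0.0028 for Ndufv1 and 0.0188 for Kif1b. The medians of histone methylation (0.0128) and DNA methylation genes (0.0886) changed sign too. So did those of kinesin motors (0.0285), microglia (-0.0605), blood cells (-0.0472), astrocytes (-0.0190) and neuromodulator receptors (-0.0019). The shifts of these last lists were smaller than the median error of their members. With errors multiplied by 1.5, 89 of the 262 lost the call, and with the CA1 error taken from the context table for every gene 2 did. Small fold changes in CA1 are limited by the rounding to 2 decimals and by 4 shock libraries.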

Other observations

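In the authors' deposited tables, 25 gene symbols stand beside 2 gene IDs each. For 15 of them the differences of both IDs, ACC minus CA1, had opposite signs, and for 3 both passed the threshold in opposite directions (normal test with Benjamini-Hochberg adjustment). For Hdac4, a class II histone deacetylase, the ID at chromosome 1, 91932757 to 92148393 on mm10, had a difference of -1.02 and the ID at 91928785 to 91931176 a difference of 0.40. For Srcap, a chromatin remodeller, the ID at chromosome 7, 127512027 to 127536376, had a difference of -1.17 and the ID at 127559386 to 127565266 a difference of 0.43. For Atf7ip, a partner of the histone methyltransferase SETDB1, the ID at chromosome 6, 136518851 to 136607377, had a difference of -0.44 and the ID at 136608859 to 136610870 a difference of 0.28. A single value for these symbols would depend on which ID is read. The gene lists took a single ID per symbol, that with the higher base means. For Hdac4 and Srcap that was the ID with the positive difference, and for Atf7ip the ID with the negative difference.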
